A study of Mus musculus with 6 samples.

Results

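The circadian clock genes Per1, Per2, Per3, Cry1, Cry2, Clock, Arntl, Nr1d1, Nr1d2 and Dbp were followed in the ventromedial hypothalamus (VMH), a nucleus of the mouse brain concerned with energy balance. Their probes were those whose annotated gene symbol was 1 of these 10 names, which gave 19 of the 45281 probes of the array. Of these 19 probes, 13 probes of 9 genes were detected above background on at least 3 of the 6 arrays and were tested, against 20006 tested probes in all. One genotype, called KO here, was represented by 3 pools of VMH RNA from mice with a knockout of FoxO1 restricted to the VMH, on a mixed strain background and without treatment. Its counterpart was 3 pools from untreated wild-type (WT) mice, also on a mixed background. Each pool held RNA of 3 animals, so the spread between replicates is a spread between pools. FoxO1 is a transcription factor kept out of the nucleus when insulin signals. The driver of the deletion, the age and sex of the animals, and the time of day, light schedule and feeding state at collection are not stated in the labels or the design text.

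The molecular clock is a feedback loop in which CLOCK and BMAL1 (the product of Arntl) pair on E-box sequences and switch on the Per and Cry genes, whose protein products enter the nucleus and restrain that pair. These genes form the positive and the negative limb. A further loop runs through the nuclear receptors REV-ERBα and REV-ERBβ (Nr1d1 and Nr1d2), which the same pair activates and which repress Arntl at ROR elements, while Dbp is an E-box-driven output factor that binds D-boxes. Transcripts of most of these genes rise and fall over the day in many tissues, with the suprachiasmatic nucleus of the hypothalamus as the central pacemaker.

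The promoter letters through which these loops are known to run are shown for the members that had both a motif match and a tested probe. RefSeq windows on GRCm38.p6, from 250 bases before to 50 bases after an annotated start, were found for 9 of the 10 members, with 13 windows in all, and Per2 had none in the table. Both strands were searched for the E-box CACGTG, the related E′-box CACGTT, the D-box as TTATGTAA or TTATGCAA, the ROR element core TAGGTCA and the FoxO core GTAAACA. Over all 32851 windows of the same length, 7.15% held the E-box, 4.68% the E′-box, 1.66% a D-box, 2.61% the ROR element core and 3.65% the FoxO core. An E-box or E′-box was found for 4 members (Per1, Cry1, Cry2 and Nr1d1), a D-box for 2 (Per1 and Per3), the ROR element core for 1 (Arntl) and the FoxO core for 1 (Cry1), and no match overlapped another. Members were counted over all windows of a gene, whereas the shares are per window and per motif, so the counts are not directly comparable with them. The 250 bases before the start are printed 5′ to 3′ with the matches in capitals for Per1 (chr11:69098699-69098948, plus strand), Per3 (chr4:151044666-151044915, minus strand), Cry2 (chr2:92434070-92434319, minus strand) and Nr1d1 (chr11:98775378-98775627, minus strand), and 30 bases around the match for Arntl (chr7:113207529-113207558, plus strand), which lies after the start. Cry1 also had matches but no tested probe, so its matches are given by position alone.
Per1: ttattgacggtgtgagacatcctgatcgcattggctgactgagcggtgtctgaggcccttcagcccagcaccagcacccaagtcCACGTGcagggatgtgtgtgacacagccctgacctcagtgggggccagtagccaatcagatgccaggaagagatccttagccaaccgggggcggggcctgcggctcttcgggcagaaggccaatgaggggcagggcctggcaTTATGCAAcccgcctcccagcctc
Per3: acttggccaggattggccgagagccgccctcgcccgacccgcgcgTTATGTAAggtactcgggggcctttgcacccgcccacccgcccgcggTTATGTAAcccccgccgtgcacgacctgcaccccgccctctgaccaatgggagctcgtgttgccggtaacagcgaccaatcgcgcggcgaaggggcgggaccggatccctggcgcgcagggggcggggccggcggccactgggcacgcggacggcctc
Cry2: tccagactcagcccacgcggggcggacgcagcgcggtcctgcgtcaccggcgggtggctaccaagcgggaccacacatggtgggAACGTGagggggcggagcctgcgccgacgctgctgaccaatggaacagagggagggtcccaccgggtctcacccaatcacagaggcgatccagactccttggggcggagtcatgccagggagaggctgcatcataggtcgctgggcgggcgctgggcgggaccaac
Nr1d1: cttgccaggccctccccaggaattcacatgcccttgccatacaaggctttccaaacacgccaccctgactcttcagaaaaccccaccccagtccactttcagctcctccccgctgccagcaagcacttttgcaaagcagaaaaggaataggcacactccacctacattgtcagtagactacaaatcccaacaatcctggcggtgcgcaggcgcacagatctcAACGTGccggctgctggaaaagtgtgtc
Arntl: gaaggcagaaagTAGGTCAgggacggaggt
Counted from the start, the Per1 E-box began at base -166 and its D-box at -24, and the Per3 D-boxes began at -205 and -158. The E′-box began at -166 in Cry2 and at -28 in Nr1d1. In Cry1 the FoxO core began at -95, the E′-box at -79 and the E-box at -60. A match describes the letters in a window and does not show that a factor binds there.

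The 6 arrays detected between 18771 (KO 1) and 20445 (WT 1) probes above background, and their number limits the precision of each value. KO 1 stood apart, as its tested probes correlated with those of the other arrays at 0.954 on average, against 0.977 to 0.981 for the others, so each clock value is also given without it where that matters. All 7 VMH markers had a tested probe, with a summed linear level of 18100 to 23700 in KO and 20900 to 23000 in WT, and none passed the test. The neuronal markers Fezf1 and Slc17a6 were bright, with Fezf1 at 12.37 ± 0.41 log2 in KO and 12.46 ± 0.08 in WT (n = 3 pools per genotype, SD) and Slc17a6 at 13.73 ± 0.10 in KO and 13.78 ± 0.08 in WT. Nr5a1, which encodes the VMH-defining factor SF-1, was detected on all 6 arrays by its brighter probe at 6.13 ± 0.34 in KO and 6.0 ± 0.23 in WT (n = 3 pools per genotype, SD). The VMH marker with the largest difference was Nkx2-1, a factor of the developing hypothalamus, at 9.48 ± 0.47 in KO and 10.03 ± 0.34 in WT, which is -0.55 log2 (SE 0.27, limma adjusted p = 0.582) and as large as the difference of Per1. Sox14 followed at 8.79 ± 0.46 in KO and 9.11 ± 0.10 in WT (-0.32 log2, SE 0.23). Both read lowest on KO 1. Of 9 suprachiasmatic markers 5 had a tested probe. Avp, Grp, Nms and Rgs16 were detected on all 6 arrays and Lhx1 on 5 by its brighter probe, while Vip and Prok2 were detected on no array. The summed linear level of those 5 genes, which is mostly that of Avp, a peptide also made in other hypothalamic nuclei, was 5080 to 11800 in KO and 3750 to 5350 in WT. It was highest on KO 1, where Avp read 13.46 log2, against 12.10 on KO 2, 12.44 on KO 3 and 11.63 to 12.17 in WT. Transcripts of the exocrine pancreas were present on every array, with 13 of 14 markers tested and a summed linear level of 15500 to 80200 in KO and 10500 to 60600 in WT, highest on KO 1. The 6 microglial markers summed to 1330 to 1400 in KO and 1100 to 1290 in WT. None of their 9 tested probes passed the test. The difference was above 0 for 6 of them, against 52.9% of all tested probes, and below 0 for 3, against 47.1%. The part of these markers and other cells in the clock values was not tested, and in pooled tissue fewer cells of a type cannot be told from less RNA per cell.

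Foxo1 itself had 2 tested probes. Its brighter probe read 6.47, 7.29 and 7.25 in KO and 7.62, 7.49 and 7.84 in WT, so the genotypes were separate, and KO 1 was the lowest of all (difference -0.65 log2, SE 0.24, limma adjusted p = 0.582). Its dimmer probe overlapped between genotypes and differed by 0.34 log2 (SE 0.35). Where these probes lie relative to the deleted part was not known here, so they do not check the labels.

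No clock gene passed the test between KO and WT. The tested probes of Per1 and Per2, 4 in all, read lower in KO with and without KO 1. Clock and Arntl differed by less than 0.1 log2 in either direction. The 2-sided moderated test of limma was adjusted by Benjamini-Hochberg over all 20006 tested probes. At an adjusted p under 0.05 it called 0 of the 13 clock probes and 0.00500% of all tested probes, with adjusted p between 0.582 and 0.926 for the clock probes. The 1 probe called over the whole table was that of Bfar (1.79 log2 higher in KO, SE 0.16, limma adjusted p = 0.0454), which is named here after its values were seen. At an unadjusted p under 0.05, 3 of the 13 clock probes were lower in KO and 0 were higher, where 3.80% of all tested probes were lower and 3.77% higher. All 3 KO arrays lay below all 3 WT arrays for 5 of the 13 clock probes, against 6.24% of all tested probes, and above them for 0, against 8.84%. These counts include the dimmer Per3 probe, which entered the test through WT alone (detected on 1 KO array and 3 WT arrays) and so had to read higher there. Over the 16793 probes detected on all 6 arrays, a restriction added after the data were seen, 2 of 11 clock probes were lower at an unadjusted p under 0.05, against 3.16% of all, and 0 were higher, against 3.87%. There the KO arrays lay below the WT arrays for 4 of 11 clock probes, against 6.10% of all, and above them for 0, against 9.50%. Those 4 probes belong to 2 genes, Per1 and Per2, and are not independent counts. The difference was below 0 for 11 of the 13 clock probes and for 47.1% of all tested probes, and above 0 for 2, against 52.9%. The median difference was -0.33 log2 for the 13 clock probes and 0.021 log2 for all, and -0.31 log2 and 0.033 log2 over the probes detected on all 6 arrays. Without KO 1 the median of the 13 clock probes was -0.061 log2, against 0.014 for all.

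**Figure D1:**
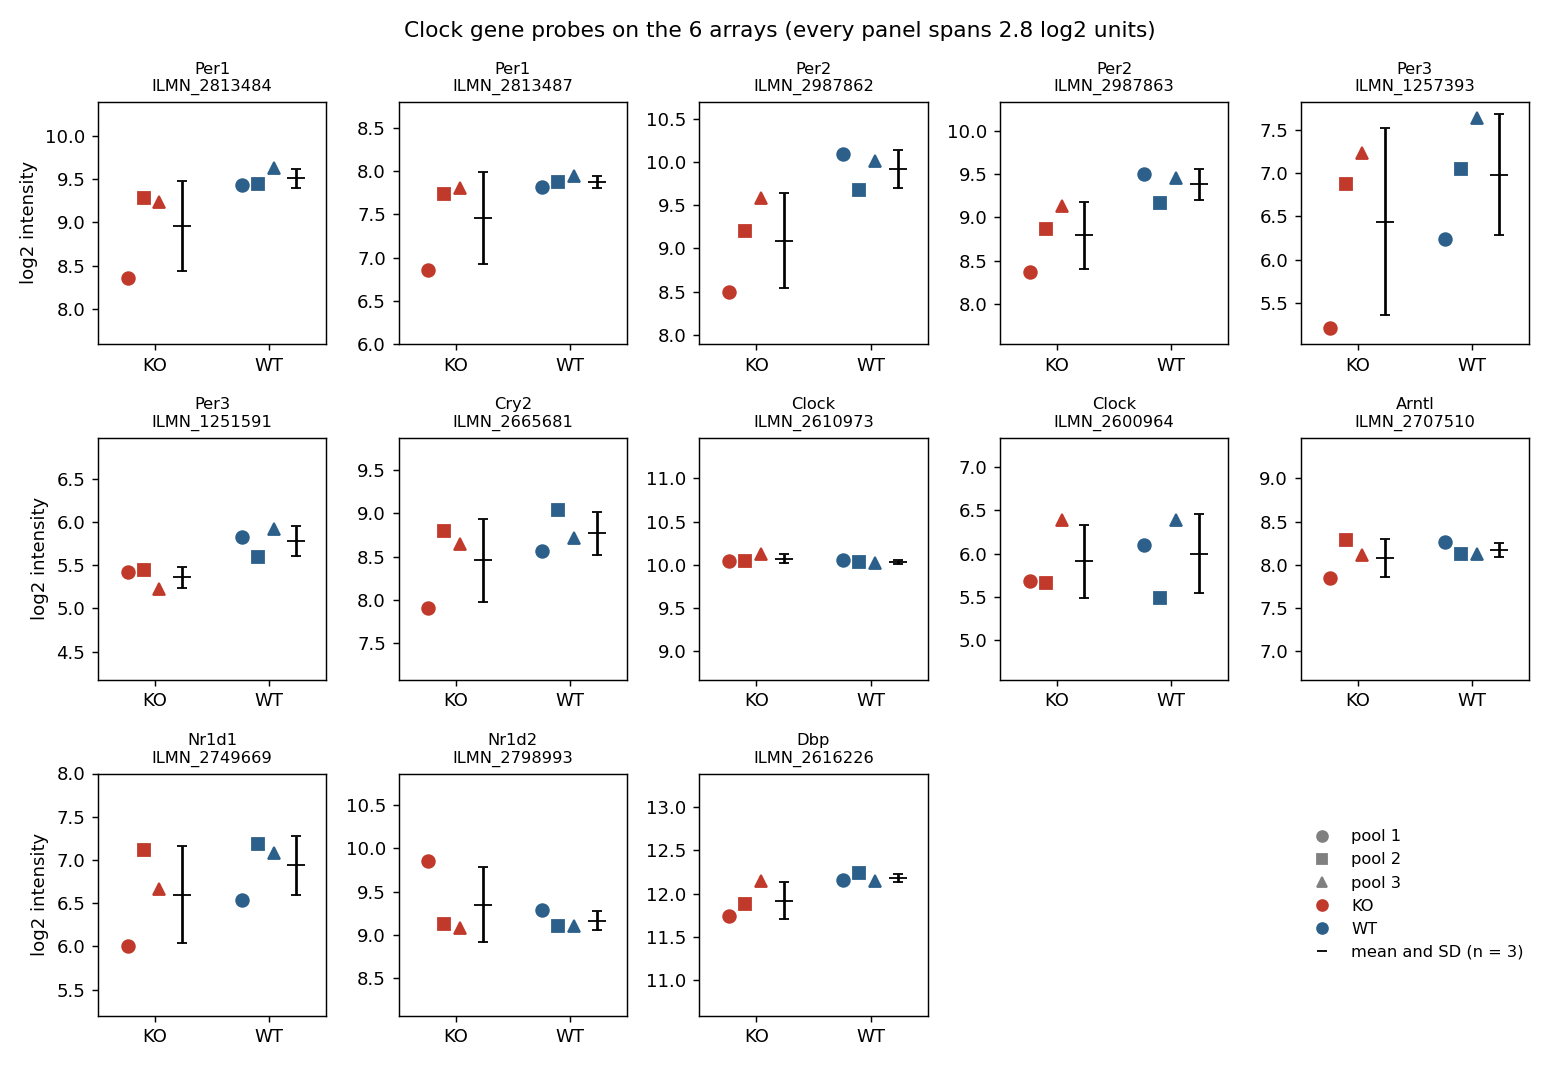
Log2 intensity (y axis, each panel with its own centre and the same span) of the 13 tested clock gene probes in the 3 KO pools (red, left) and the 3 WT pools (blue, right), with symbols for pools 1, 2 and 3 and a bar for mean and SD. Both Per1 probes, both Per2 probes and the dimmer Per3 probe (detected on 1 KO array) lie lower on all 3 KO arrays than on any WT array, and KO 1 is the lowest point in most panels and the highest for Nr1d2.

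Per2, a repressor of the CLOCK:BMAL1 pair whose gene is among the most strongly rhythmic of the family, gave the largest difference among the clock probes. Its brighter probe (ILMN_2987862) read 8.50, 9.20 and 9.58 on the KO arrays and 10.09, 9.67 and 10.01 on the WT arrays. The highest KO array lay just under the lowest WT array, and KO 1 was the lowest. In the deposited linear signal these values were 489.2, 715.3 and 892.3 in KO against 1215.5, 943.8 and 1156.1 in WT. The means were 9.09 ± 0.55 in KO and 9.92 ± 0.22 in WT (n = 3 pools per genotype, SD). The difference was -0.83 log2 with an SE of 0.27, which is 1.78-fold lower in KO (limma adjusted p = 0.582, unadjusted p = 0.0146). The other tested Per2 probe (ILMN_2987863) read 8.37, 8.87 and 9.13 in KO and 9.50, 9.17 and 9.46 in WT. It ordered the arrays the same way, with the genotypes separate and KO 1 lowest, and differed by -0.59 log2 (SE 0.22, limma adjusted p = 0.582, unadjusted p = 0.0256). The remaining Per2 probe (ILMN_1258523) was not detected on any array. Without KO 1 the differences of the tested probes were -0.53 log2 (SE 0.19, limma unadjusted p = 0.0227) and -0.38 log2 (SE 0.16, limma unadjusted p = 0.0515). The limma adjusted p without KO 1 was 0.937 for both. KO 2 and KO 3 still lay under the WT arrays on both, which held for 8.33% of all tested probes.

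Per1, the Period gene that also responds acutely to neuronal activity and to glucocorticoids, read lower in KO on both tested probes. The brighter (ILMN_2813484) was at 8.36, 9.28 and 9.24 in KO and 9.43, 9.45 and 9.63 in WT. KO 1 lay far below the rest, while KO 2 and KO 3 were slightly below the WT arrays. The means were 8.96 ± 0.52 in KO and 9.51 ± 0.11 in WT (n = 3 pools per genotype, SD). The difference was -0.54 log2 with an SE of 0.25, which is 1.46-fold lower in KO (limma adjusted p = 0.582, unadjusted p = 0.0618). The dimmer probe (ILMN_2813487) read 6.86, 7.74 and 7.80 in KO and 7.81, 7.87 and 7.94 in WT and differed by -0.41 log2 (SE 0.25), or by -0.24 log2 without background correction. On this probe the KO and WT arrays were separate by a margin that is small beside the spread of the KO arrays. Without KO 1 the differences were -0.24 log2 (SE 0.14) and -0.10 log2 (SE 0.13). The third probe (ILMN_1249997) was not detected. Activity genes such as Fos and Egr1, 7 of 9 with a tested probe, summed to 2980 to 5810 in KO and 4220 to 6150 in WT, and 6 of 6 glucocorticoid-responsive genes to 4900 to 7110 in KO and 5620 to 7030 in WT. The genotypes overlapped in both sums, and none of these genes passed the test. The activity sum, which is mostly that of Egr1, was lowest on KO 1, as Per1 was. Fos, Fosb, Egr1 and Arc read lowest on KO 1, whereas Egr2, Junb and Dusp1 read lowest on WT 1. The part of neuronal activity or glucocorticoids in the Per1 values was not tested.

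Per3, a Period family member that is less needed for the core rhythm in mice, was measured by 2 probes that did not order the arrays alike. The brighter probe (ILMN_1257393) read 5.21, 6.88 and 7.23 in KO and 6.24, 7.05 and 7.64 in WT, so the genotypes overlapped, and it was the most variable clock probe, with a range of 2.43 log2 over the arrays. It was not detected on KO 1 and differed by -0.54 log2 (SE 0.53, limma adjusted p = 0.669), by -0.21 log2 without background correction and by 0.080 log2 without KO 1. The dimmer probe (ILMN_1251591) read 5.42, 5.44 and 5.23 in KO and 5.83, 5.59 and 5.92 in WT, close to background, and was detected on 1 KO array and 3 WT arrays. It met the detection filter through WT alone, so the filter favoured lower KO values. Its p is therefore not printed, but the probe is 1 of the 3 counted above as lower at an unadjusted p under 0.05. KO 3, not KO 1, was the lowest array. The difference was -0.42 log2 (SE 0.16), -0.12 log2 without background correction and -0.45 log2 without KO 1.

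Of the cryptochromes, the strongest repressors of the CLOCK:BMAL1 pair, only Cry2 could be measured. It read 7.91, 8.80 and 8.65 in KO and 8.56, 9.04 and 8.71 in WT (ILMN_2665681). KO 2 lay above 2 of the WT arrays, and the means of 8.46 ± 0.48 in KO and 8.77 ± 0.25 in WT (n = 3 pools per genotype, SD) differed by -0.31 log2 (SE 0.25, limma adjusted p = 0.623). Without KO 1 that difference was -0.040 log2. The other Cry2 probe (ILMN_1256483) was detected on 2 of the 6 arrays and was not tested. Cry1, with 1 probe (ILMN_2618668), was detected on none of the 6 arrays and stays without a value here.

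On the brightest tested probe of each gene, the positive limb varied less between arrays than the negative limb. Clock, a histone acetyltransferase and DNA-binding partner of BMAL1, read 10.04, 10.04 and 10.12 in KO and 10.05, 10.03 and 10.02 in WT on its brighter probe (ILMN_2610973). Among the brightest tested probes of the clock genes, its range of 0.10 log2 was the narrowest. The difference of 0.034 log2 (SE 0.14) had a 95% interval of -0.285 to 0.353 and took the opposite sign with cyclic loess (-0.003). A dimmer Clock probe (ILMN_2600964) read 5.68, 5.66 and 6.39 in KO and 6.10, 5.49 and 6.39 in WT and differed by -0.089 log2 (SE 0.28), with the sign changing when KO 1, KO 2 or WT 3 was left out. Another Clock probe (ILMN_2589603) was not detected. Arntl, which encodes BMAL1, read 7.85, 8.29 and 8.11 in KO and 8.26, 8.13 and 8.12 in WT (ILMN_2707510). The genotypes overlapped, with KO 2 the highest array and KO 1 the lowest, and the difference of -0.085 log2 (SE 0.17) had a 95% interval of -0.467 to 0.296 and was 0.032 log2 without KO 1.

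The repressors that act on Arntl had differences of opposite sign with KO 1 and of the same sign without it. Nr1d1 read 6.01, 7.12 and 6.67 in KO and 6.54, 7.19 and 7.08 in WT (ILMN_2749669), with overlapping genotypes and KO 1 lowest. Its means of 6.60 ± 0.56 in KO and 6.94 ± 0.34 in WT (n = 3 pools per genotype, SD) differed by -0.33 log2 (SE 0.29, limma adjusted p = 0.637), and by -0.039 log2 without KO 1 and -0.14 log2 without background correction. Nr1d2 read 9.85, 9.13 and 9.08 in KO and 9.29, 9.10 and 9.10 in WT (ILMN_2798993), and here KO 1 was the highest array. The other KO arrays were level with WT 2 and WT 3. The difference was 0.19 log2 (SE 0.22, limma adjusted p = 0.72) with KO 1 and -0.061 log2 without it. The dimmer Nr1d2 probe (ILMN_2602387) was detected on 1 array and was not tested.

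Dbp, the output factor of the clock that drives D-box genes, read 11.74, 11.88 and 12.15 in KO and 12.16, 12.24 and 12.15 in WT (ILMN_2616226). The WT arrays lay within 0.10 log2 of each other, and KO 3 was level with them while KO 1 and KO 2 were lower. The means of 11.92 ± 0.21 in KO and 12.18 ± 0.05 in WT (n = 3 pools per genotype, SD) differed by -0.26 log2 with an SE of 0.16, which is 1.20-fold lower in KO (limma adjusted p = 0.584). Without KO 1 the difference was -0.17 log2 (SE 0.14).

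**Figure D2:**
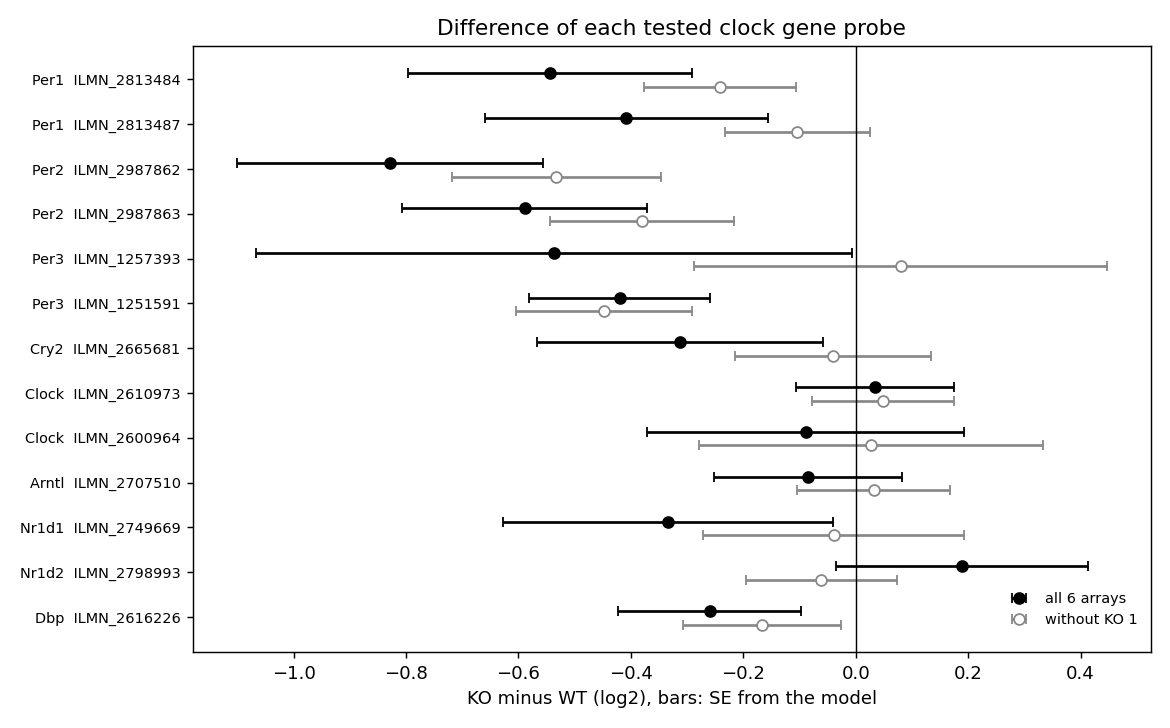
KO minus WT difference in log2 (x axis) for each of the 13 tested clock gene probes, with all 6 arrays (filled points) and without KO 1 (open points), bars giving the SE from the model. The Per2 probes keep differences of -0.53 and -0.38 without KO 1, while Cry2, Nr1d1, Nr1d2 and the brighter Per3 probe move to between -0.061 and 0.080. The dimmer Per3 probe, at -0.45 without KO 1, met the detection filter through WT alone, which favoured lower KO values.

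The limbs were then set against each other on each array, taking for each gene its brightest tested probe and its deviation from the mean of the 6 arrays. The negative limb (Per1, Per2, Per3 and Cry2) averaged -1.02, 0.03 and 0.16 log2 on the KO arrays and 0.06, 0.29 and 0.48 log2 on the WT arrays. KO 1 was more than 1 log2 unit below the mean, and KO 3 lay above WT 1, so the genotypes overlapped. Both statements rest on Per3, whose probe was not detected on KO 1. It deviated by -1.50 log2 on KO 1, 0.52 on KO 3 and -0.47 on WT 1. For Per1 and Per2, KO 3 lay below WT 1 (0.01 against 0.19 and 0.07 against 0.58), and for Cry2 above it (0.04 against -0.06). The positive limb (Clock and Arntl) averaged -0.14, 0.08 and 0.03 log2 in KO and 0.07, -0.01 and -0.02 log2 in WT and thus moved little on any array. Negative minus positive limb came to -0.88, -0.05 and 0.13 log2 in KO and to -0.01, 0.30 and 0.50 log2 in WT. The highest KO array again passed the lowest WT array, which also rests on Per3. Its mean was -0.27 ± 0.54 log2 in KO and 0.27 ± 0.26 log2 in WT (n = 3 pools per genotype, SD), a difference of -0.53 log2, which was -0.22 log2 without KO 1. The negative limb alone differed by -0.56 log2, by -0.18 log2 without KO 1 and by -0.39 log2 without background correction. Nr1d1 and Nr1d2 together averaged -0.08, 0.11 and -0.14 log2 in KO and -0.10, 0.13 and 0.08 log2 in WT, because their opposite deviations on KO 1 (-0.76 and 0.59) cancelled.

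**Figure D3:**
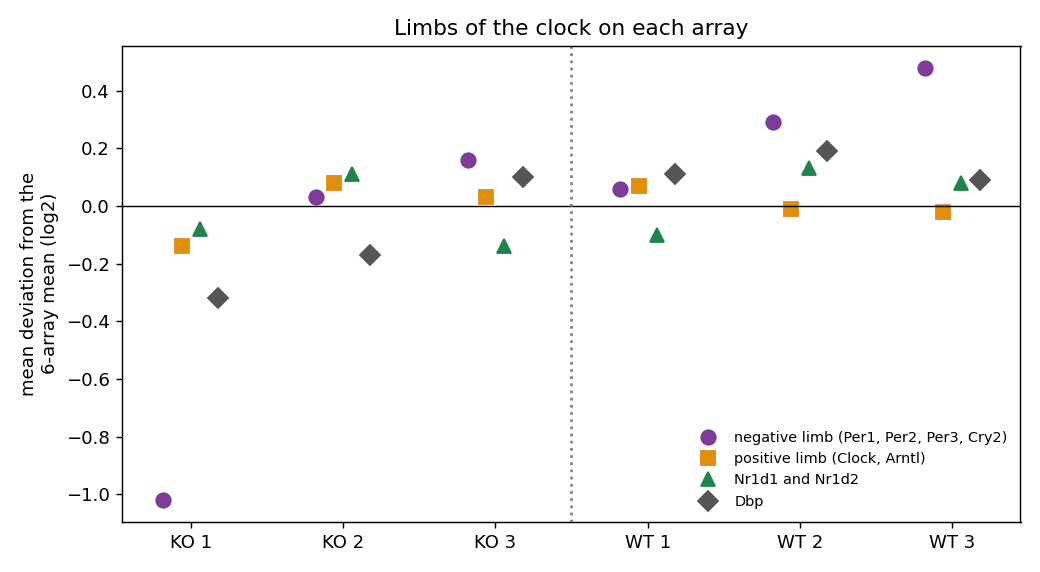
Mean deviation from the 6-array mean in log2 (y axis) on each array (x axis, KO arrays left of the dotted line, WT arrays right of it) for the negative limb, the positive limb, Nr1d1 with Nr1d2, and Dbp. The negative limb runs between -1.02 on KO 1 and 0.48 on WT 3, while the positive limb stays between -0.14 and 0.08.

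KO 1 was an extreme array for most clock genes, as it was for many other genes. It was the lowest of the 6 arrays for 7 of the 9 measured members, where it was lowest for 33.3% of the 10825 tested genes and highest for 38% of them. Within KO the members spanned 0.08 (Clock) to 2.03 log2 (Per3) between arrays, and within WT 0.03 (Clock) to 1.40 log2 (Per3). For Per1, Per2, Cry2, Nr1d1, Nr1d2, Dbp and Arntl, too, the range within KO was wider than within WT. The share of all tested genes with a wider range within KO was not counted, so this is not shown to be particular to clock genes.

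Clock genes outside the 10 members were described from lists of 20 genes. Among 12 loop partners and outputs and 8 kinases, ligases and other modifiers, 17 genes had a named probe and 13 had a tested one. None of their 27 tested probes passed the limma test in either direction, and at an unadjusted p under 0.05, 1 was lower in KO, against 3.80% of all tested probes, and 1 higher, against 3.77%. The difference was below 0 for 21 of the 27 probes, against 47.1% of all, with a median of -0.17 log2 that was -0.026 log2 without KO 1. All KO arrays lay below all WT arrays for 6 of the 27, against 6.24% of all, and above them for 1, against 8.84%. Some of these 6 were detected on fewer KO than WT arrays, which favours lower KO values. Over the probes detected on all 6 arrays, these counts were 4 of 22, against 6.10% of all, and 1, against 9.50%. The 27 probes belong to 13 genes and are not independent counts. Ciart, a repressor of the CLOCK:BMAL1 pair, had the smallest p on the lower side. Its probe ILMN_3029489 read 7.48, 7.36 and 7.85 in KO and 7.83, 8.0 and 8.14 in WT, a difference of -0.42 log2 (SE 0.18, limma adjusted p = 0.582). KO 3 lay above WT 1 on that probe, and the other Ciart probes differed by -0.27 and -0.10 log2. Csnk1d, a kinase that marks PER proteins for degradation, followed on its dimmest probe with -0.44 log2 (SE 0.22), where its 4 brighter tested probes differed by -0.20 to 0.024 log2. On the higher side Rorb, a receptor that activates at ROR elements, read 5.91, 5.99 and 6.02 in KO and 5.68, 5.65 and 5.63 in WT on its dimmest tested probe. The genotypes were separate there, with a difference of 0.32 log2 (SE 0.14, limma adjusted p = 0.582), while the other Rorb probes differed by 0.30 and -0.064 log2. Rora, of the same receptor family, differed by 0.21 log2 (SE 0.16).

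**Figure D4:**
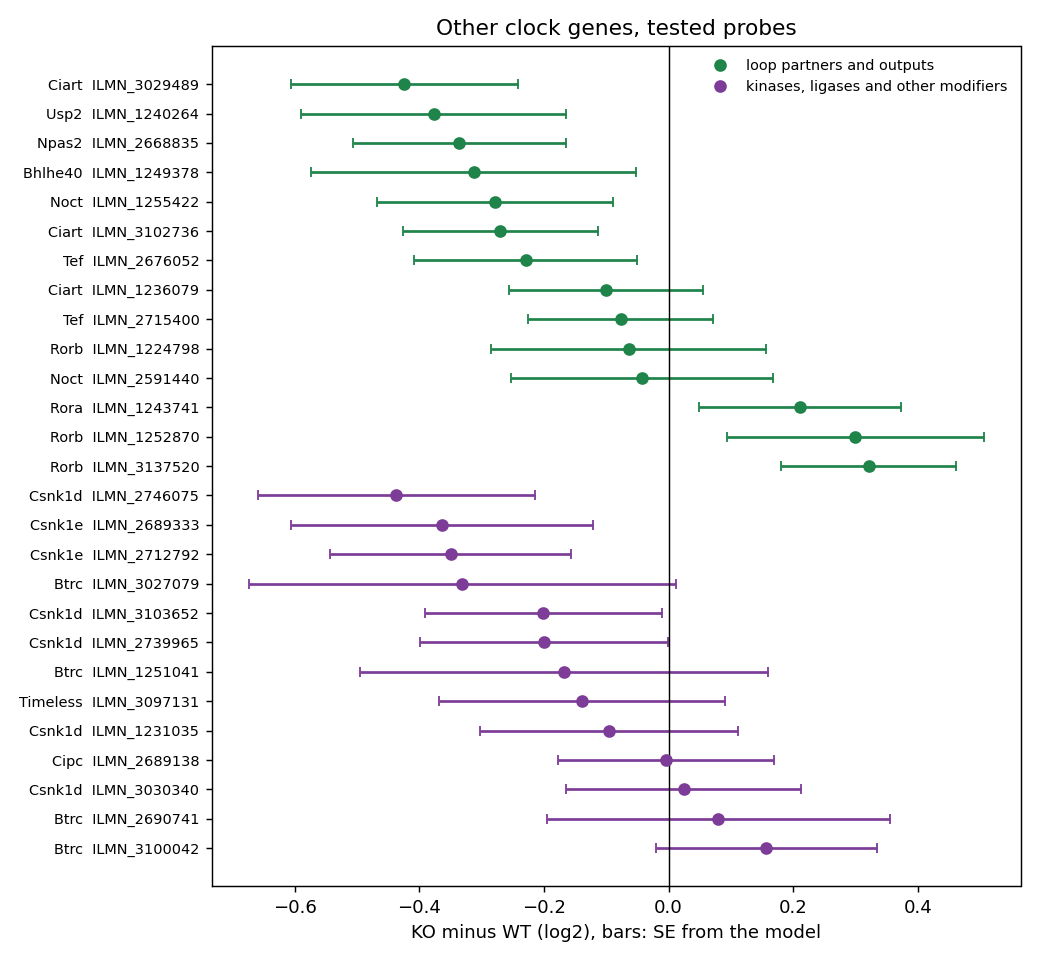
KO minus WT difference in log2 (x axis, bars: SE from the model) for the 27 tested probes of clock genes outside the 10 members, loop partners and outputs in green and modifiers in purple. Differences run between -0.44 (Csnk1d) and 0.32 (Rorb), and different probes of 1 gene, such as those of Rorb, Csnk1d and Btrc, can point to opposite sides.

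Per1, Per2, Per3, Nr1d1, Nr1d2 and Dbp, grouped as textbook targets of CLOCK and BMAL1 and not by the motif search, had a mean deviation of -0.64, -0.01 and 0.07 log2 on the KO arrays and 0.04, 0.20 and 0.35 log2 on the WT arrays. Among 7398 other genes with a range of at least 0.5 log2, the closest profiles over the 6 arrays by Pearson correlation were those of Vcp (0.999), Dpp6 (0.999) and Prr13 (0.998), each lowest on KO 1 and highest on WT 3. A correlation above 0.9 with this profile was reached by 1107 of these genes, so the shape is a common one on these arrays.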

How the data were processed

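Total RNA of the VMH was labelled with the Ambion MessageAmp kit, per the labels' protocols, and hybridised to Illumina Mouse-6 V2 arrays, per the design text. The deposited table holds the intensity of each probe on each array beside its detection p-value, per the file headers. The authors' deposited intensity values already share 1 distribution, as quantile normalization gives: the sorted signals of the 6 arrays differ by at most 0.4. The authors' deposited log2 table equals the log2 of these signals within 5e-05, with column medians of 7.30 or 7.31, no centring and no ratio. Partek is listed in the submitters' processing notes (Partek Genomics Suite 6.5 in the design text), and how they normalized the values is not stated there.

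Signals were processed with neqc of limma 3.58.1 in R 4.3.3 (normexp background correction based on the detection p-value, offset 16, quantile normalization, log2). Background correction widens differences of dim probes. Here it was applied to deposited signals that already shared 1 distribution, and how well the detection p-values describe the background of such signals was not tested. Probes detected (p under 0.05) on at least 3 arrays were fitted with lmFit and eBayes, KO against WT without covariates, over the whole table. Platform gene symbols were brought up to date by Entrez identifier from the RefSeq table of GRCm38.p6, and 34885 of 45281 probes had 1 symbol. Where a gene needed 1 value, its brightest tested probe was used. The fit was also run on simulated data with known changes. These data were drawn as independent noise with no array set apart, unlike KO 1 here. The run therefore does not show how often such changes would be found on these arrays.

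The members, limbs and lists were chosen with earlier results of these data known. All member probes are named. Of the other clock genes the text names the 2 with the smallest p per direction, and of the other genes Foxo1 and the 3 profiles closest to the mean of Per1, Per2, Per3, Nr1d1, Nr1d2 and Dbp. Bfar and single markers from the marker lists are named outside this rule, after their values were seen. Same-numbered pools were checked for pairing: the correlation of their deviations was 0.146, 0.004 and 0.402 for numbers 1, 2 and 3. Pools of unlike number were not correlated for comparison, so these values do not decide on pairing. The main fit took the pools as unpaired. No sample was left out of the values unless stated.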

Additional observations from a re-analysis of the deposited data

How the results depend on the processing

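No clock probe and no probe of the other clock genes passed the test under any of 15 alternatives, whereas 1 probe among all 20006 tested passed in the analysis as reported. That count was 0 without background correction, with an offset of 50, with cyclic loess, with the authors' value table, with no filter, with a strict filter, with an intensity trend and with the replicate number as a replicate block, and it ran between 0 and 1 when single arrays were left out. The block left the number of clock probes called at 0. It lowered the SE of Per3 from 0.53 to 0.208, of Nr1d1 from 0.294 to 0.176 and of Cry2 from 0.254 to 0.184. The SE of Clock, Arntl and Dbp rose slightly with it. Some signs turned. The Arntl difference ran between -0.189 log2 and, without KO 1, 0.032 over the left-out arrays. Nr1d2 ran between 0.326 and, without KO 1, -0.061, and the brighter Per3 probe between -0.933 and, without KO 1, 0.080. The brighter Clock probe was at -0.003 with cyclic loess and Clock at -0.028 as a mean over its probes. The dimmer Clock probe ran between -0.341 and 0.109 and was above 0 without KO 1 (0.027), KO 2 (0.036) or WT 3 (0.109). The cause of these changes was not tested. The Per2 difference ran between -1.07 and -0.53 log2 over the left-out arrays and between -0.87 and -0.70 in the other settings, and that of Per1 between -0.70 and -0.24 and between -0.58 and -0.44. Negative minus positive limb ran between -0.73 and -0.22 log2 over the left-out arrays. Differences of dim probes depend on the background correction, and the number of arrays limits the precision.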
